A study of Arabidopsis thaliana with 24 samples.

Results

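In the suspensor of young Arabidopsis thaliana embryos, 85 genes reached a median of at least 20 FPKM (fragments per kilobase of transcript and per M mapped fragments) while their medians in the apical cell, the basal cell and the embryo proper all stayed under 1. They were picked from 32399 loci by these medians, each over 6 libraries per cell type. The rule also leaves out by name NF-YB6 and YUC3, which failed it in any case: NF-YB6 had a median of 1.8 FPKM in the apical cell and 1.03 in the embryo proper, and YUC3 had 1.35 in the basal cell. Of the 85, 84 code for proteins and 1 is a pseudogene. The same thresholds turned to another cell type gave 1 locus for the apical cell, 16 for the basal cell and 40 for the embryo proper. Because the levels in the 4 cell types chose the genes, those levels are given below as a description, with no test.

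The 24 RNA-seq libraries came from hybrid embryos of the accessions Col and Ler, with 3 libraries in each of 8 groups. Apical and basal cells were taken from 2-celled embryos, and embryo proper and suspensor from 32-celled embryos. Each cell type was taken from Col mothers crossed with Ler fathers, here called Col libraries, and from Ler mothers crossed with Col fathers, here called Ler libraries, all on plants grown under greenhouse long days. The study set out to compare parental contributions to the apical and basal cell lineages, and its text calls the 3 libraries of a group independent biological replicates. The number of embryos behind a library is not given in the sources used here.

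The zygote of Arabidopsis divides into a small apical cell and a larger basal cell. The apical cell builds most of the embryo, and the basal cell divides across its length into the suspensor, a short file of cells that holds the embryo in the seed, passes nutrients and growth regulators to it, and later dies. The homeodomain factors WOX8 and WOX9 and the auxin exporter PIN7 are classical markers of this lineage. Only the uppermost suspensor cell joins the embryo, where it founds part of the root meristem.

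The library labels matched most of these markers. The median of WOX8 was 363 FPKM in the suspensor, 238 in the basal cell, 34.8 in the apical cell and 0.42 in the embryo proper, and the median of PIN7 was 58.8 FPKM in the suspensor and 2.84 in the embryo proper. WOX9, listed as HB-3, was at 217 FPKM in the suspensor and 112 in the embryo proper. Of 9 embryo proper markers, 3 (TMO5, listed as BHLH32, WUS and CUC2) were at 0 in every suspensor library, but the epidermal gene PDF1 had a suspensor median of 1155 FPKM against 4892 in the embryo proper. The suspensor medians of WOX2, DRN (listed as ESR1) and HAN (listed as MNP) were 1.53, 0 and 0.11 FPKM, against 84.8, 38.7 and 114 in the embryo proper. AGO10 and ATML1 had 14.7 and 27.9 FPKM against 73.9 and 67.7. Summed over the 9 markers, FPKM ran from 523 to 2214 in the suspensor and from 4151 to 5682 in the embryo proper. Most of the suspensor sum was PDF1, at 479 FPKM in Col 2, which had the lowest sum, and 2159 in Ler 2, which had the highest. Of 17 endosperm markers, 10 were at 0 in every suspensor library, PHE1, AGL36, AGL61 and AGL90 among them, and their sum ran from 82.7 to 249 FPKM in the suspensor, from 59.4 to 420 in the basal cell and from 2.28 to 5.07 in the embryo proper. Most of that sum was the sucrose carrier gene SUC5, at a suspensor median of 175 FPKM. Of 22 seed coat markers, 7 were at 0 in every suspensor library, and their sum ran from 19.9 to 83.9 FPKM there and from 45.2 to 64.2 in the embryo proper. Their part in the levels of the 85 genes was not tested. In a bulk sample, fewer cells of a type and less RNA per cell cannot be told apart.

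Some libraries stood apart. For 4 of the 24 libraries the labels name 2 preparation kits, Nextera XT or NEBNext, without saying which was used. The library suspensor Ler 1 is the 1 suspensor library among them. The 85 genes took the smallest share of summed FPKM in suspensor Ler 1, 0.544%, against 0.677% to 0.997% in the other suspensor libraries. Suspensor Ler 1 held the lowest of the 6 values for 30 of the 85 genes, while suspensor Ler 3 held the highest for 25. These counts were not made over all loci, so a shift of whole libraries cannot be told apart from one of these genes. Without suspensor Ler 1 the rule found 95 loci, of which 80 are among the 85. Outside the suspensor, the library apical cell Ler 1 held 79 of the 85 genes above 0 and 19 at 1 FPKM or more. Across genes, the values in that library followed the suspensor medians (Spearman's rho 0.73 over 85 genes, a description of genes that share 1 library, with no test). In the other 17 libraries rho ran from -0.15 to 0.29, and the highest, 0.29, were in apical cell Ler 2 and Ler 3. The cause was not tested.

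**Figure D1:**
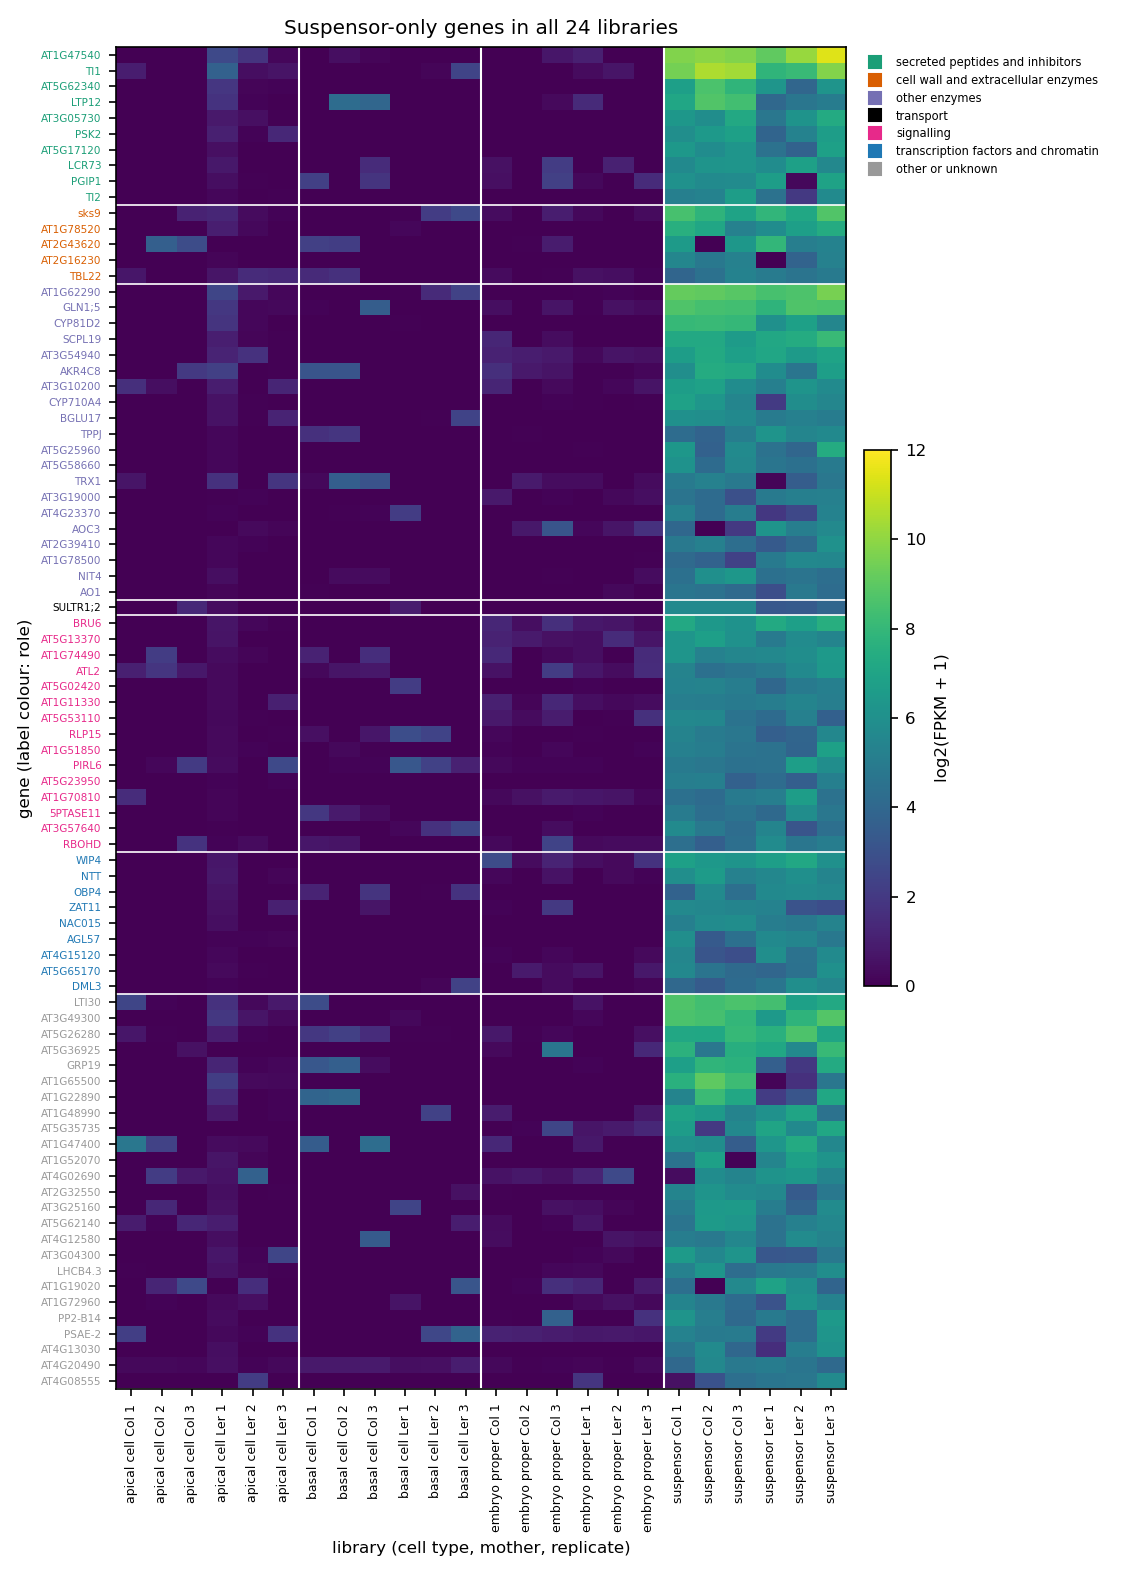
Heat map of log2(FPKM + 1) for the 85 genes (rows, label colour by role) in the 24 libraries (columns: cell type, mother and replicate). The 6 suspensor columns on the right are bright, and the column of apical cell Ler 1 carries faint signal in 79 of the 85 rows.

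Suspensor medians ran from 20.1 to 905 FPKM with a middle value of 40.1. In all, 16 genes reached a median of 100 and 36 reached 50. In every one of the 6 suspensor libraries, 30 of the genes reached 20 FPKM and 66 reached 5. In contrast, 10 genes fell under 1 FPKM in at least 1 suspensor library and 4 were listed at 0 in one. Of the 1530 values of these genes in the 18 other libraries, 989 (64.64%) were 0 and 152 were 1 or more. Only 25 genes stayed under 1 in all 18 libraries, 45 reached 1 in 1 to 3 of them, and 15 did so in more than 3, so "suspensor only" describes medians and not single libraries. The highest single value elsewhere was 26.4 FPKM for AT1G47400 in apical cell Col 1, followed by 24.3 FPKM for AT5G36925 in embryo proper Col 3.

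The edge of the rule cut through a continuous range. The lowest members were NIT4, a nitrilase, at 21.9 FPKM, the DNA demethylase gene DML3 at 20.7 and the aldehyde oxidase gene AO1 at 20.1. Just under the threshold stood ACS2, an enzyme of ethylene synthesis, at 19.98, the phosphate transporter gene PHT3;2 at 19.7 and NDR1 at 19.7. On the other side, MYB2 (66.1 FPKM in the suspensor) missed the rule by a basal cell median of 1.02, AT5G24130 by 1.03 in the embryo proper and the kinase gene WAG1 by 1.11 in the embryo proper. The members with the highest medians elsewhere were AT5G26280 at 0.97 in the basal cell, PSAE-2 at 0.84 and WIP4 at 0.81, both in the embryo proper.

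Secreted peptides and inhibitors were the class with the highest levels: 10 genes with a middle suspensor median of 75.9 FPKM, against 40.1 over all 85. They include the pair at the top of the whole set. AT1G47540 codes for a knottin, a small protein knotted by disulfide bridges, and was listed at 836, 973 and 837 FPKM in the Col libraries and at 532, 1133 and 2725 in the Ler libraries. TI1, a trypsin inhibitor that blocks serine proteases, was at 721, 1491 and 1298 FPKM in the Col and at 229, 282 and 878 in the Ler libraries. Its neighbour and family member TI2 was at 35.4, 39.0 and 102 FPKM in the Col and at 22.4, 2.95 and 52.6 in the Ler libraries. All 3 genes were seen in every suspensor library, and their ranges in both crosses overlapped. Outside the suspensor, TI1 reached 12.4 FPKM in apical cell Ler 1 and 4.49 in basal cell Ler 3, and AT1G47540 reached 5.34 in apical cell Ler 1.

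The 3 genes belong to 1 family. The protein of AT1G47540 has 99 residues, that of TI2 has 90, and 65.9% of aligned residues are the same; the nearest relative of TI1 is AT2G43535 with 66.7% identity, a gene 3 loci away whose suspensor median was 0. The genes for TI1 and TI2 lie side by side on chromosome 2 with 564 bases between them. The 250 bases before their starts (RefSeq TAIR10.1, strand of the gene, 5′ to 3′) are shown because the genes share a family and a pattern. Capitals mark the W-box core TTGACT or TTGACC, which WRKY factors bind, and the RY element CATGCA, which B3 factors of seeds bind, on either strand.
TI1 at chr2:18066710-18066959, plus strand: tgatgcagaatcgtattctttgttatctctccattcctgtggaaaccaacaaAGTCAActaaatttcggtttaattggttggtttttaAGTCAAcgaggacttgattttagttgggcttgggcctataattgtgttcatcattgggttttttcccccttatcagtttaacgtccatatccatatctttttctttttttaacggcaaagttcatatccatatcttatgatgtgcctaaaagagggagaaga
TI2 at chr2:18068175-18068424, plus strand: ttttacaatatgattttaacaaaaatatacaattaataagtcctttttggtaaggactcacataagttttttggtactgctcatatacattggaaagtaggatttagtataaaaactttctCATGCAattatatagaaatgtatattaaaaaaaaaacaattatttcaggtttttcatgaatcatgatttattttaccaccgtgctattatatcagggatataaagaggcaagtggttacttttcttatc
AT1G47540 at chr1:17456187-17456436, minus strand: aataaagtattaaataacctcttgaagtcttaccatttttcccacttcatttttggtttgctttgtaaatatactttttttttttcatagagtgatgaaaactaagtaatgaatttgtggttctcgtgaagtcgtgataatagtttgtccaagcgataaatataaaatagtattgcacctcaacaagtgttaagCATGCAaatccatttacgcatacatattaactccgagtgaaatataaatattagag
The window of TI1 holds 2 W-box cores and no RY element. Those of TI2 and AT1G47540 hold 1 RY element each and no W-box core.

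The other secreted members had lower levels. AT5G62340, an inhibitor of pectin methylesterases or invertases, had a median of 91.9 FPKM, and LTP12, a lipid transfer protein known from the anther tapetum, had 83.5. A defensin-like protein, AT3G05730, was at 76.2 FPKM, and PSK2, a precursor of the growth peptide phytosulfokine, at 75.7. The cystatin-like AT5G17120 was at 65.6 and the small cysteine-rich LCR73 at 64.5. LCR73 overlaps AT2G02148 on the opposite strand by 50 bases, and the sources used here do not say whether the counting used strand, so reads of such pairs may be shared. PGIP1, an inhibitor of fungal polygalacturonases, ranged widely, from 0.19 FPKM in suspensor Ler 2 to 121 in suspensor Ler 3.

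Cell wall and extracellular enzymes made up 5 members with a middle median of 59.5 FPKM. The highest was sks9, a relative of the multicopper oxidase-like protein SKU5, at 362, 223 and 122 FPKM in the Col and 239, 139 and 423 in the Ler libraries. AT1G78520, with a domain that binds callose-like glucans, had a median of 123 FPKM. AT2G43620, a chitinase, ran from 0 in suspensor Col 2 to 242 in suspensor Ler 1, the widest scatter of any of the 85 (SD of log2 values within a cross 2.85). The remaining pair was the glycosyl hydrolase AT2G16230, at 32.2 FPKM, and TBL22, of a family that acetylates wall polysaccharides, at 26.7.

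Other enzymes made up 20 members. AT1G62290, an aspartyl protease with a saposin-like insert, was at 564, 537 and 478 FPKM in the Col and 357, 406 and 735 in the Ler libraries. GLN1;5, a cytosolic glutamine synthetase, which binds ammonium into glutamine, was at 412, 354 and 329 FPKM in the Col and 222, 411 and 385 in the Ler libraries. Both genes were above 200 FPKM in every suspensor library, and their crosses overlapped. CYP81D2, a cytochrome P450, had a median of 183 FPKM. SCPL19, the enzyme that makes sinapoylcholine in seeds, had 151, and its annotated end overlaps PPa6, on the opposite strand and at 51.4 FPKM, by 8 bases. A papain-type cysteine protease, AT3G54940, had 118 FPKM with a range of 92.0 to 157. Among the lower members were CYP710A4, a sterol desaturase of the P450 family (51.1 FPKM), the trehalose phosphate phosphatase gene TPPJ (38.2), the jasmonate synthesis gene AOC3 (24.6) and the terpenoid cyclase gene AT1G78500 (23.3). The protein of CYP710A4 is 93.9% identical to that of its neighbour CYP710A3, so reads may have been split between them.

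Transport was represented by 1 gene, SULTR1;2, known for sulfate uptake by roots. It was at 51.5, 51.6 and 50.6 FPKM in the Col libraries and at 8.82, 9.7 and 14.4 in the Ler libraries. The crosses did not overlap, and replicates within a cross lay close together.

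Signalling was represented by 15 genes with a middle median of 28.9 FPKM. BRU6 and AT5G13370, both of the GH3 family whose members join amino acids to auxin or other hormones, led with 130 and 60.7 FPKM. A cytoplasmic protein kinase, AT1G74490, had 52.6, the ubiquitin ligase gene ATL2 had 35.4 and AT5G02420, similar to inhibitors of cyclin-dependent kinases, had 34.0. The receptor-like kinase gene AT1G11330 varied little, between 29.9 and 42.2 FPKM in the 6 libraries (SD of log2 values within a cross 0.15). RBOHD, an oxidase that makes reactive oxygen species at the plasma membrane, had a median of 22.5 FPKM.

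Transcription factors and chromatin genes numbered 9 and had a middle median of 37.8 FPKM. The highest were WIP4 and NTT, related zinc finger proteins (55.1% identity) known from the initiation of the root meristem in embryos. WIP4 was at 110, 84.2 and 73.4 FPKM in the Col and 106, 144 and 64.2 in the Ler libraries, and NTT at 59.3, 96.5 and 38.0 in the Col and 45.4, 61.4 and 42.1 in the Ler libraries. Both were present in every suspensor library with overlapping crosses. The closest relative of WIP4 is WIP5 (69.3% identity), also known from root initiation, and its medians were 0.07 FPKM in the suspensor and 1.05 in the embryo proper. The upstream windows of the pair are shown because a relative with a known shared role was not in the set; capitals mark the same motifs as above.
WIP4 at chr3:7315884-7316133, minus strand: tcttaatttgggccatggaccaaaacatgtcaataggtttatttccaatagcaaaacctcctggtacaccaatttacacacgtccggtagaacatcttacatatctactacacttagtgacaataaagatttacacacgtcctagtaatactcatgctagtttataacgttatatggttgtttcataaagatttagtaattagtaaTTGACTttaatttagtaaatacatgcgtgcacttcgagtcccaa
NTT at chr3:21370507-21370756, plus strand: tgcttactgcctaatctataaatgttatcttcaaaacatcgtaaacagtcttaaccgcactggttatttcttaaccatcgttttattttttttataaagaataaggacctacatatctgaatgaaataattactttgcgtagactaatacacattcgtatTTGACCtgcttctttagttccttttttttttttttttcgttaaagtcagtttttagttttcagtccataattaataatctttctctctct
Each window holds 1 W-box core and no RY element. The other factors were lower. The DOF factor gene OBP4 had 49.1 FPKM, the zinc finger gene ZAT11 40.1, and NAC015, known as BEARSKIN1 from the maturing root cap, 37.8 with a range of 28.2 to 57.5. AGL57, a MADS-box gene, had 35.04, and the VQ motif genes AT4G15120 and AT5G65170 had 33.4 and 22.8. DML3, of the DEMETER family of DNA demethylases, closed the class at 20.7.

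The last 25 members are of other or unknown function. LTI30, a dehydrin that protects membranes under cold and drought, was at 413, 326 and 391 FPKM in the Col and 336, 111 and 150 in the Ler libraries, with an overlap of 1 library. The proline-rich AT3G49300 had a median of 300.0 FPKM, the TRAF-like AT5G26280 had 170 and the unannotated AT5G36925 had 163. GRP19, a glycine-rich protein known from the pollen coat, was at 109, 231 and 205 FPKM in the Col libraries but at 11.4, 2.88 and 161 in the Ler libraries. An oleosin, AT1G48990, of the proteins that coat oil bodies, had 79.4 FPKM, and PP2-B14 had 31.8.

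**Figure D2:**
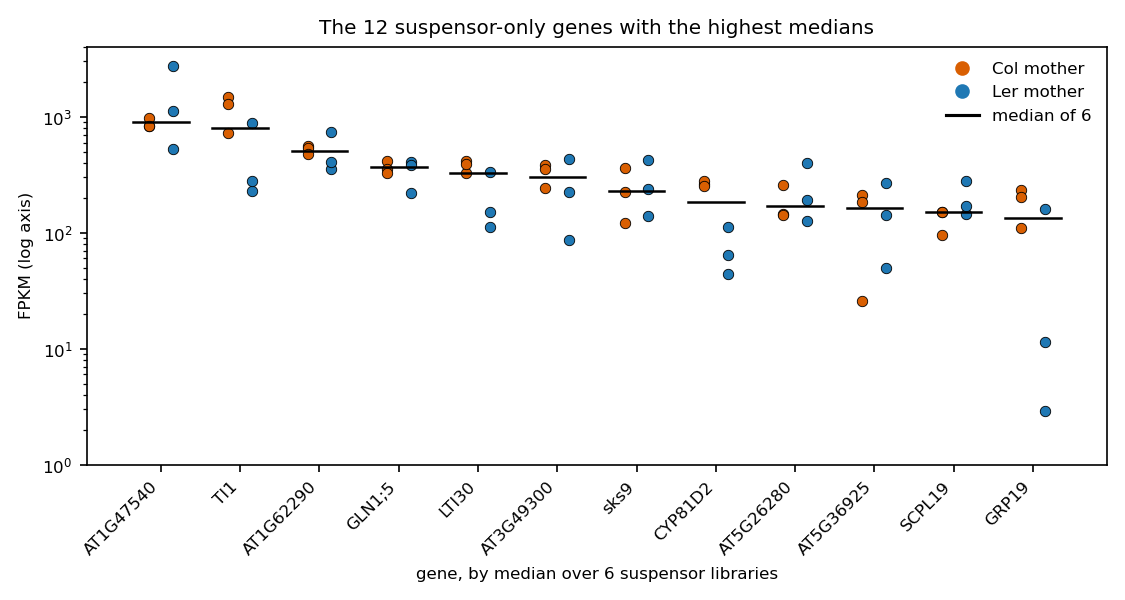
FPKM (log axis) of the 12 genes with the highest suspensor medians in the 3 Col and 3 Ler suspensor libraries; the bar is the median of 6. Points of both crosses interleave for most genes, while all 3 Col points of CYP81D2 lie above all 3 Ler points and GRP19 spans 2.88 to 231.

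The suspensor libraries did not agree equally well for all genes. Within a cross, the SD of log2(FPKM + 1) had a median of 0.83 over the 85 genes, 0.81 over the 14293 loci tested in the suspensor, and 0.54 over tested loci with a suspensor median of at least 20. The smallest SDs were those of AT1G11330 and BGLU17, a beta-glucosidase (0.15 each), and of SULTR1;2 (0.24). At the other end, after AT2G43620, stood PGIP1 (2.68) and AT1G52070, a mannose-binding lectin (2.45), the latter at 0.08 FPKM in suspensor Col 3 and 113 in suspensor Ler 2. Depth, estimated from the spacing of low values at 19.7 to 26.6 M fragments in the suspensor libraries, is not stated in the files.

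The rule pooled both crosses, and the difference between them was tested in the 6 suspensor libraries with limma on log2(FPKM + 1). These are the libraries the rule used, and only 41 of the 85 genes met it in each cross alone, so some passed through the cross in which they were high, and the counts over the 85 below are a description. After Benjamini-Hochberg adjustment none of the 14293 tested loci passed 0.05 in either direction (0.0% higher and 0.0% lower with a Col mother), and so none of the 85. At an unadjusted p under 0.05, 12 of the 85 were higher and 5 lower with a Col mother, against 5.04% and 3.53% of all tested loci and 7.39% and 4.88% of those with a suspensor median of at least 20. In 10 of the 85 all Col libraries lay above all Ler libraries and in 7 all lay below, against 7.17% and 7.22% of all tested loci and 9.75% and 7.51% of those with that median. The median difference, Col minus Ler, was 0.23 on the log2 scale over the 85 genes, 0.0 over all tested loci and 0.05 over loci with a suspensor median of at least 20. It moved with single libraries: it was -0.13 without suspensor Ler 1, 0.13 without Col 2, 0.14 without Col 1, 0.42 without Col 3 and 0.53 without Ler 3. Rescaling to the same sum in every library (TPM) moved the median of the 85 to -0.01 and that of all loci to -0.22.

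The widest gaps with higher Col values lay in AT1G65500 and LTP12. AT1G65500, a protein of 86 residues with no known function, was at 196, 518 and 303 FPKM in the Col libraries and at 0.12, 2.2 and 26.3 in the Ler libraries, a difference of 6.09 on the log2(FPKM + 1) scale (SE 0.93, adjusted p = 0.137). LTP12 was at 135, 430 and 331 FPKM in the Col and at 15.5, 25.1 and 32.1 in the Ler libraries, a difference of 3.47 (SE 0.47, adjusted p = 0.076). In both genes every Col library was above every Ler library, but neither passed the test. LTP12 passed in 7 of 16 alternative settings and AT1G65500 in 5, with adjusted p from 0.0146 to 0.649 and from 5.26e-05 to 0.845.

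Several enzymes and the sulfate transporter also kept the crosses apart. The difference was 1.94 for CYP81D2 (SE 0.37), 2.15 for SULTR1;2 (SE 0.51), 2.3 for the cupin gene AT3G04300 (SE 0.56) and 2.24 for the pectin methylesterase inhibitor AT5G62340 (SE 0.62). In each of these 4 genes, all Col libraries were above all Ler libraries, and no adjusted p was under 0.24. In the opposite direction, AOC3 was at 15.2, 0 and 2.95 FPKM in the Col and at 73.0, 33.9 and 49.2 in the Ler libraries, a difference of -3.66 (SE 0.94, adjusted p = 0.359). AT1G78500 differed by -1.97 (SE 0.63), TPPJ by -1.41 (SE 0.5) and DML3 by -1.47 (SE 0.55), each with all Col libraries below all Ler libraries. Among the 10 secreted members the middle difference was 1.2, against 0.0 over all tested loci and 0.05 over those with a suspensor median of at least 20. In 2 of the 10 all Col libraries lay above, against 7.17% and 9.75% of these loci. The class is small and was set after the values were seen, so these figures are a description.

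**Figure D3:**
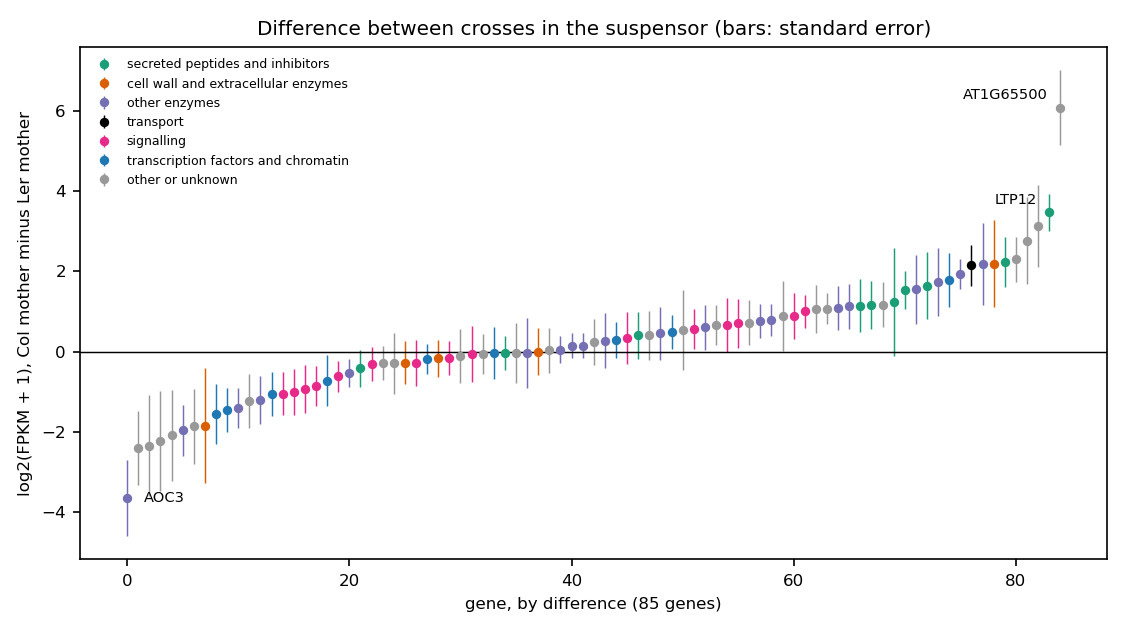
Difference between crosses in the suspensor, Col minus Ler mother on the log2(FPKM + 1) scale, for each of the 85 genes in order of size; bars are standard errors and colours mark roles. The differences run from -3.66 for AOC3 to 6.09 for AT1G65500; no gene passed the adjusted threshold.

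In 1 fit of all 24 libraries, which sets the spread of the suspensor libraries from all cell types, 6 of the 85 were called higher and 2 lower with a Col mother, against 2.91% and 1.3% of 18206 loci. The 6 were AT1G65500, SULTR1;2, AT3G04300, LTP12, CYP81D2 and AT5G62340, and the 2 were AT1G78500 and AOC3. The rule kept the medians of the 85 genes under 1 FPKM in the 18 other libraries, so their spread there is tied to the rule. Against the suspensor fit, the SE fell from 0.63 to 0.4 for AT1G78500 and rose from 0.47 to 0.8 for LTP12. The shares over all loci are therefore not a like background for these counts. On simulated data with no difference the fit of all 24 libraries made calls, and the fit of the suspensor libraries alone made none. In these data each locus had 1 mean level over all libraries of a fit, while its noise followed each cell type. Real loci differ between cell types, so the calls do not measure how many calls of the real 24-library fit are false. Where differences were built in, the suspensor fit found a smaller share of them and missed most of the smaller ones. A lack of calls in it therefore does not show a lack of differences. Leaving out suspensor Ler 3 from the fit of the suspensor libraries gave 11 higher and 12 lower calls over all loci, with 4 of the 85 genes among the higher (AT1G65500, LTP12, GRP19 and TI1), and leaving out suspensor Col 1 gave 1 call, LTP12. Leaving out each of the other 4 libraries gave no call.

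The genes were spread over all 5 chromosomes, with 21, 15, 17, 11 and 21 on chromosomes 1 to 5. Few were close together. Besides TI1 and TI2, only 1 pair stood within 2 loci of each other, AT1G78500 and AT1G78520 on chromosome 1. CYP81D2 and BRU6 on chromosome 4 are 3 loci apart, as are AT1G47540 and the inositol phosphatase gene 5PTASE11 on chromosome 1. Of 167 adjacent loci that are not in the set, 68 had medians under 1 in all 4 cell types, a share that was not counted over all loci.

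Adjacent loci were not chosen on the contrast between cell types and were tested in it with limma over all 24 libraries. Of the 106 with enough signal, 33 were higher in the suspensor than in the embryo proper and 18 lower, against 22.4% and 28.5% of all 18206 loci tested. Compared with the basal cell, 29 were higher and 18 lower, against 18.9% and 26.0% of all. Over all 167 adjacent loci, 19.8% were higher and 10.8% lower than in the embryo proper, against 12.6% and 16.0% of all listed loci. For the basal cell the shares were 17.4% and 10.8%, against 10.6% and 14.6%. CYP81D8, next to CYP81D2, stood out with 485 FPKM in the suspensor and 0.69 in the embryo proper (log2 difference 7.88, SE 0.41, adjusted p = 4.89e-13); its medians of 33.1 in the basal cell and 7.17 in the apical cell kept it outside the rule. The GTPase gene RABA1f next to OBP4 was higher by 4.74 (SE 0.38) and PSY1, the precursor gene of a tyrosine-sulfated growth peptide, next to AT5G58660 by 4.53 (SE 0.47). The cuticle genes PEL3 and HTH, next to AT5G23950 and AT1G72960, were lower, with log2 differences of -3.61 (SE 0.37) and -3.28 (SE 0.46). In 11 cases the neighbour's annotated gene overlaps the member.

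Most members have close paralogues. A search with blastp found for 70 of 84 proteins a relative with at least 40% identity over at least 50% of the protein. For 3 of them that relative is itself in the set (AT1G47540 and TI2 with each other, and WIP4 for NTT), and the rest point to 67 other genes. Of these 67, 27 had medians under 1 FPKM in all 4 cell types, a share that was not counted over all loci. For instance, GH3.4 (87.9% identical to BRU6) and sks10 (75.2% identical to sks9) were at a median of 0 in each cell type, as were AOC2 and PGIP2, which lie next to AOC3 and PGIP1. In contrast, 15 relatives had suspensor medians of 20 FPKM or more, about the share over all protein coding loci (6129 of 26712).

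Of the 42 relatives with enough signal, 22 were higher in the suspensor than in the embryo proper and 5 lower. Compared with the basal cell, 16 were higher and 4 lower, and the shares over all tested loci are those given above. A locus could pass the filter through the suspensor alone. Over all 67 relatives, 32.8% were higher and 7.46% lower than in the embryo proper, against 12.6% and 16.0% of all listed loci. For the basal cell the shares were 23.9% and 5.97%, against 10.6% and 14.6%. Whether reads of members were placed on their relatives was not tested. PP2-B13, 91.1% identical to PP2-B14, reached 521 FPKM in the suspensor and 0.85 in the embryo proper (log2 difference 7.56, SE 0.72), and at this identity the reads of the pair may have been divided between them. DOF1, related to OBP4, was at 130 and 0.45 FPKM (6.37, SE 0.42), NIT3, related to NIT4, at 77.2 and 0.36 (5.57, SE 0.44), and GLN1.3, related to GLN1;5, at 361 and 20 (4.13, SE 0.22). GLN1.3 had a median of 332 FPKM in the basal cell, where GLN1;5 had a median of 0 but reached 10.45 in basal cell Col 3. The aspartic protease gene APA1, 80.5% identical to AT1G62290, was at 500.1 FPKM in the suspensor, close to the level of its relative, but also at 115 in the basal cell and 67.0 in the embryo proper. LCR68, related to LCR73, was at 17473 FPKM in the suspensor and 1499 in the embryo proper (3.67, SE 0.16). Lower in the suspensor were LTP3, a relative of LTP12, with 128 FPKM against 9342 in the embryo proper (-6.02, SE 0.54), and BGLU15, a relative of BGLU17 (-3.88, SE 0.82).

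**Figure D4:**
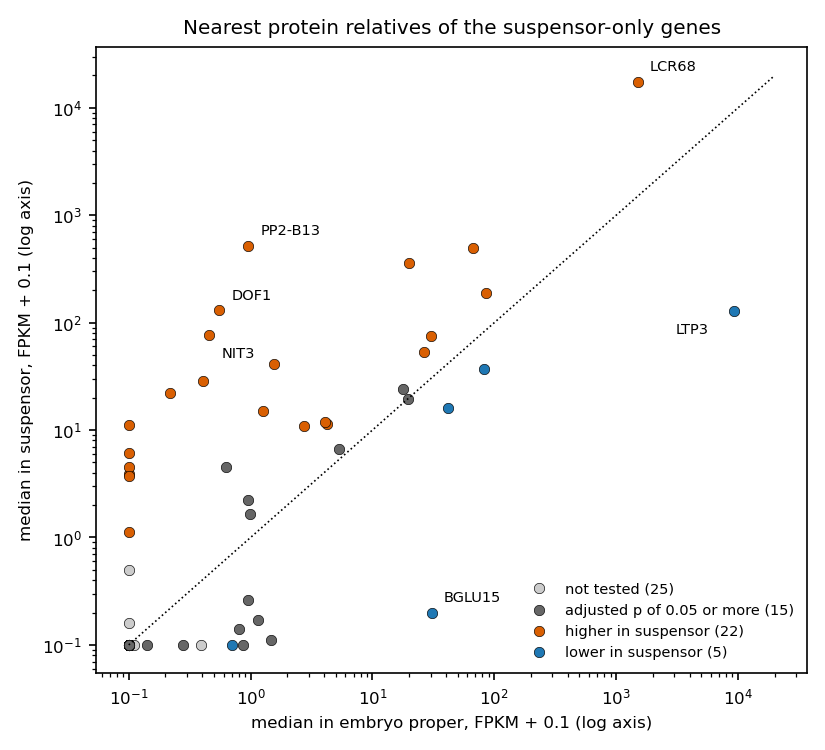
Median FPKM in the suspensor against the embryo proper (log axes, 0.1 added) for the 67 nearest protein relatives that are not among the 85 genes; the dotted line marks equal medians and colours mark the limma call. The 22 relatives called higher in the suspensor lie above the line, PP2-B13 and DOF1 far from it, and LTP3 lies far below it.

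Small proteins were frequent in the set. Under 150 residues were 21 of 84 proteins (25%), against 14.6% of 26712 protein coding loci and 15.6% of those with a suspensor median of at least 20. The median length was 316 residues, against 354 and 299. A single coding exon was found in 20.2% of the members, in 23.2% of all and in 12.9% of those with that suspensor median.

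The 250 bases before the annotated start were searched on both strands for 9 motifs in 84 members and 26711 protein coding genes. A W-box core in the form TTGACT stood in 35.7% of the members and in 19.1% of all genes, and in the form TTGACC in 17.9% and 12.2%; either form stood in 41 members (48.8%) and in 28.5% of all genes. The RY element stood in 17 members (20.2%) and in 8.51% of all genes. Besides AT1G47540 and TI2, the members with an RY element included AT3G49300, GRP19, AT3G54940 and LTP12. The shares in members and in all genes were 9.52% and 6.58% for the G-box CACGTG. The other motifs were the auxin response elements TGTCTC (14.3% and 10.9%) and TGTCGG (5.95% and 4.16%), the homeodomain site TTAATGG (8.33% and 7.04%), the TATA box TATAAA (54.8% and 47.7%) and the CCAAT box (41.7% and 46.1%), which NF-Y complexes bind. These are counts of letters and were not tested, and a match is not a bound site. The shares were not counted over genes with a suspensor median of at least 20. The gaps are thus not shown to be particular to this set.

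**Figure D5:**
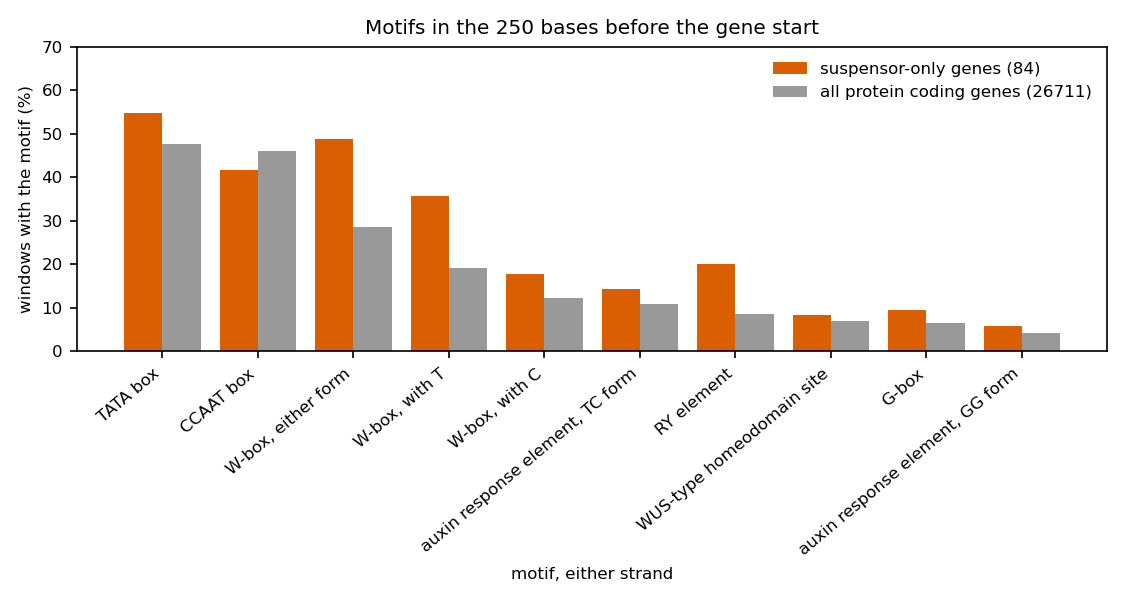
Share of 250-base windows before the gene start that hold each motif on either strand, in percent, for 84 of the genes and for all 26711 protein coding genes. Either W-box form was found in 48.8% against 28.5% of windows, the RY element in 20.2% against 8.51% and the CCAAT box in 41.7% against 46.1%. Genes with a suspensor median of at least 20 were not counted apart.

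None of the 85 genes is among the known regulators listed for the lineage. Of 22 tested suspensor and basal lineage regulators, 9 (40.9%) were higher in the suspensor than in the embryo proper and 7 (31.8%) lower (median log2 difference 0.06), against 22.4% and 28.5% of all tested loci. Compared with the basal cell, 7 (31.8%) were higher and 2 (9.09%) lower, against 18.9% and 26.0% of all. WOX8 was higher than in the embryo proper by 8.04 (SE 0.26), PIN7 by 3.88 (SE 0.43), the auxin response repressor IAA10 by 3.3 (SE 0.48) and the WOX8 activator WRKY2 by 2.63 (SE 0.44), while the kinase gene YDA was lower (log2 difference -1.25, SE 0.35). All 9 embryo proper markers were lower in the suspensor.

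Among 8 genes used as markers of developmental cell death, 6 were at 0 in every suspensor library, and MC9 stayed under 2 FPKM. The exception was CEP1, a cysteine protease known from dying tapetum cells, at 730, 879 and 383 FPKM in the Col and 411, 669 and 398 in the Ler suspensor libraries, with an embryo proper median of 0.53 (log2 difference 8.49, SE 0.26, adjusted p = 8.81e-17). Apical and basal cell medians of 20.7 and 12.1 FPKM kept it outside the rule. Of 5 factors of embryo identity and maturation, LEC1 (1471 FPKM in the suspensor), FUS3 (228) and NF-YB6 (689) were higher than in the embryo proper by 2.12 (SE 0.16), 4.73 (SE 0.4) and 8.45 (SE 0.51), and LEC2 and ABI3 were lower, with log2 differences of -2.86 (SE 0.48) and -3.1 (SE 0.37). Of 7 tested endosperm markers, SUC5 and AGL62 (28.6%) were higher in the suspensor than in the embryo proper and none lower. Of 13 tested seed coat markers, 2 (15.4%) were higher and 3 (23.1%) lower, against 22.4% and 28.5% of all tested loci.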

How the data were processed

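The deposited values are FPKM per gene and library, made by the authors; the tools named, per the submitters' processing notes, are RSEM (version not given) and TopHat2 2.1.1, with the TAIR10 genome. Per the labels' protocols, mRNA was amplified with a SMART-Seq low-input kit. Gene names, coordinates and upstream sequence came from RefSeq TAIR10.1 (31912 of 32399 loci matched; nuclear sequence of TAIR10). Medians used FPKM as deposited. Tests used limma 3.58.1 in R 4.3.3 (lmFit, eBayes with a trend) on log2(FPKM + 1) for loci that reached an FPKM of 1 in 3 or more libraries, Benjamini-Hochberg over all tested loci, threshold 0.05: 6 suspensor libraries for the cross, 8 group means over 24 libraries for contrasts between cell types, which were applied only to loci outside the set. No 2 libraries had equal values at more than 0.17% of loci with an FPKM of 1 or more in either. The fit was tested on simulated data. Relatives were found with blastp 2.17.0. The genes named were the 12 with the highest suspensor median, up to 5 per role, the 3 steadiest and 3 least steady, and those nearest the thresholds; others, the cross differences among them since none was called, were chosen after their values were seen, as was the role of each gene, read from its annotation. The members and lists were chosen with earlier results of these data known. Depth is estimated with an assumed fragment length of 200 bases; an FPKM near 1 rests on few fragments in short genes.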

Additional observations from a re-analysis of the deposited data

Results flagged for a closer look

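In 12 of the 85 genes 1 suspensor library lay far from the other 5 on the log2 scale, judged by its gap against the whole range; chance alone marks about 1 in 20 groups at each such test. Suspensor Ler 1 was the low library for 6 of them: GLN1;5 (222 FPKM against a median of 370), CYP710A4 (3.14 against 51.1), AT5G02420 (15.3 against 34.0), AT2G16230 (0 against 32.2), TRX1 (0.11 against 26.8) and AO1 (6.42 against 20.1). Suspensor Col 2 was low for AT5G35735 (3.01 against 74.8) and AT2G43620 (0 against 59.5). Suspensor Ler 2 was low for PGIP1 (0.19 against 59.96) and high for AT1G11330 (42.2 against 33.5). Suspensor Col 3 was low for AT1G52070 (0.08 against 58.3) and suspensor Col 1 for AT4G02690 (0.33 against 49.1). What sets these libraries apart was not tested. The same count was not made over all loci, so the 12 cases are not shown to be particular to this set.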

How the results depend on the processing

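The set depends on its thresholds. A suspensor minimum of 10 gave 166 loci and one of 40 gave 43, and 41 of the 85 met the rule in each cross alone. Other medians under 0.5 or 2, means in place of medians and rescaling to equal sums (TPM) gave 66 to 107 loci, and leaving out each suspensor library gave 88 to 95. For the cross, counts of loci higher and lower with a Col mother were 529 and 236 in the fit of all 24 libraries (6 and 2 of the 85). Higher counts were 3 with a pseudocount of 5 (2 of the 85), 1 with a minimum of 5 FPKM, 1 with median-ratio scaling, 2 with quantile normalization (1 of the 85) and 3 with library weights (2 of the 85). Leaving out 1 library gave 0 to 11 higher and 0 to 12 lower, of which 0 to 4 higher and 0 lower were among the 85. With replicate number as a block 2 loci were called higher (both among the 85, LTP12 and AT1G65500) and 0 lower. Same-numbered libraries correlated at -0.06 to 0.05, and suspensor libraries with different numbers at -0.04 to 0.07. Whether the numbers pair libraries cannot be told from these values. The sign of the 17 differences with an unadjusted p under 0.05 was kept in all 272 comparisons with alternatives. These 17 were picked for their differences in the same suspensor libraries that the alternatives reuse. The kept sign is therefore no support for them. Counts between suspensor and embryo proper stayed within 3669 to 4302 higher and 4711 to 5476 lower, and between suspensor and basal cell within 3147 to 3928 and 4194 to 4974. The cause of each shift was not tested. Depth limits what can be said of values under 1 FPKM, where a 0 does not show absence.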

Other observations

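Some members reached 1 FPKM in the basal cell of 1 cross only. In at least 2 basal cell libraries of the Col cross and in none of the Ler cross this held for 12 of the 85 genes, and the reverse for 6. The same counts were not made over all loci, so no background stands beside them. LTP12 reached 18.2 FPKM in basal cell Col 2 and 14.5 in Col 3, GRP19 reached 8.47 in Col 1 and 11.6 in Col 2, and AT1G22890 reached 13.7 in Col 1 and 15.6 in Col 2. Of the 12, 5 had a higher mean in the Col suspensor libraries, these 3 among them, and 7 a higher mean in the Ler suspensor libraries. AT1G47400, at 10.4 FPKM in basal cell Col 1 and 18.4 in Col 3, is one of the 7, with suspensor means of 45.1 FPKM in the Col and 95.2 in the Ler cross. Of the 6, 4 had a higher suspensor mean in the Col and 2 in the Ler cross. These groups were defined after the values were seen, and no difference in the basal cell was tested.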
